A study of Mus musculus with 2 samples.

Results

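ChIP-seq (chromatin immunoprecipitation with sequencing) located CTCF in the intestine of newborn mice, and the peaks described here are those at promoters of long noncoding RNA genes. From the optimal peak list of the study, 1258 of the 71756 peaks on chromosomes 1 to 19 (1.75%) were taken. Their summit lay at most 1 kb from a TSS (transcription start site) of a noncoding gene and over 1 kb from the TSS of every protein-coding gene. The noncoding genes were those that GENCODE M21 annotates with 1 of 6 types: lincRNA (intergenic), antisense, processed_transcript, sense_intronic, sense_overlapping or bidirectional_promoter_lncRNA. A further 1181 peaks lay within 1 kb of both a noncoding and a coding TSS and were left out, since the data do not say which gene such a peak belongs to. No peak value entered the choice.

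The study holds 1 group of 2 biological replicates: whole intestine of B6NCrl mice at postnatal day 0, ground and pooled over several dissections, with the sex not recorded. Whole intestine mixes epithelium, muscle, nerve and blood cells, so the cell type behind a peak is unknown. There is no second condition and no control track was used here, so the comparisons are between classes of peak inside the same lists, with no test between samples. The whole optimal list, filtered by IDR (irreproducible discovery rate, which scores whether a peak ranks alike in the replicates), held 73465 peaks. The signal of a peak is the authors' own value, its unit not stated, and it ranks peaks within a list. The number of reads behind a peak is unknown. The intervals beside percentages are 95% Wilson intervals and cover the counting of peaks or genes only, and neighbouring peaks are not independent: 216 of the 1258 lay within 1 kb of another of them.

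CTCF, a DNA-binding protein with many zinc fingers, recognises a long, asymmetric motif and, with cohesin, anchors chromatin loops whose direction follows the strand of the motif. At promoters it can sit just before the start of transcription, and it sits on 1 parental allele at several imprinted noncoding RNAs. Long noncoding RNAs are transcripts without an evident protein product, many of them little expressed and started at promoters poor in CpG dinucleotides.

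The sites under the peaks show the motif most directly. A 19-column matrix was learned from the strongest peaks of even-numbered chromosomes to score the odd ones, and the reverse. The consensus, the most frequent base of each column, was equal in all 19 columns of the 2 matrices, and capitals mark the 7 columns where that base made up 80% or more of the training sites in both.
consensus: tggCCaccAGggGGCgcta

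The sites printed here belong to the strongest noncoding promoter peaks and to genes with a described role, so that they can be read against the consensus. Each is read 5′ to 3′ along the strand of the motif, on mm10 coordinates with bases from RefSeq GRCm38.p6, with the 19 motif bases in capitals and 10 bases of flank on both sides.
Gm33195 (chr13:43864754-43864792, plus strand): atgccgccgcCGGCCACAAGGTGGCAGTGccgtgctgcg
Gm12052 (chr11:22617753-22617791, minus strand): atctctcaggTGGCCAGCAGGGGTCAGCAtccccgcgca
Gm17382 (chr17:26886285-26886323, minus strand): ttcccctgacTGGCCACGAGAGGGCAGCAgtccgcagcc
Gm37584 (chr3:88526415-88526453, minus strand): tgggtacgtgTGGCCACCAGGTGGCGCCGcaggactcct
Gm26797 (chr9:122310695-122310733, minus strand): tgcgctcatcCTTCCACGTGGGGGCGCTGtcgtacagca
A930015D03Rik (chr17:35993811-35993849, minus strand): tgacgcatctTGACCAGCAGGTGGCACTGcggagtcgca
Gm31408 (chr9:31559646-31559684, plus strand): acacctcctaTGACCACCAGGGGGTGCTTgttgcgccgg
B230206L02Rik (chr11:94133407-94133445, plus strand): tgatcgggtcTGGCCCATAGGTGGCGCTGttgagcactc
Hoxd3os1 (chr2:74715908-74715946, plus strand): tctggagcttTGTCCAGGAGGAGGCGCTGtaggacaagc
Gm53 (chr11:96261739-96261777, minus strand): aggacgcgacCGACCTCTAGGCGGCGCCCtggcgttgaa
Meg3 (chr12:109543026-109543064, minus strand): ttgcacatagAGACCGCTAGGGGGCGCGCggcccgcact
Peg13 (chr15:72810073-72810111, minus strand): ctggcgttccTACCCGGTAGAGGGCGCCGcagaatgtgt
Nespas (chr2:174295440-174295478, minus strand): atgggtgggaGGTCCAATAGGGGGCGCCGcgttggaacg
Tbx3os2 (chr5:119691310-119691348, minus strand): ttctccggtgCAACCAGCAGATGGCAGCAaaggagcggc
Snhg7os (chr2:26640312-26640350, minus strand): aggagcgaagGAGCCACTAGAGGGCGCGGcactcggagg
Gm10032 (chr14:66785087-66785125, minus strand): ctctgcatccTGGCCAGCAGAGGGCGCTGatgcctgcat

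The AG and GGC letters of the core recur in most of these sites, whereas the outer columns vary. Gm37584 and Gm10032 matched the consensus in 16 of 19 columns and had motif scores of 24.4 and 23.9, where the score sums the log2 odds of each base against equal base frequencies. Gm31408 also matched in 16 columns but scored 18.0. Tbx3os2 matched in only 10 columns and still scored 20.1, since frequent alternatives to the consensus base also score. A window within 100 bases of the summit was called a motif at a score of 9.57 or 9.65, by matrix, which 5% of the training peaks' flanking windows reached.

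The 3 strongest noncoding promoter peaks with no motif are shown by their best-scoring 19 bases, again in capitals and on the strand of the match.
AC122818.2 (chr17:87571763-87571801, minus strand): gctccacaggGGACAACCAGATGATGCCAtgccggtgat
Gm31812 (chr1:52113909-52113947, minus strand): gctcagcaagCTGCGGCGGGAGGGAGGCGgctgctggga
Gm12925 (chr4:123667717-123667755, minus strand): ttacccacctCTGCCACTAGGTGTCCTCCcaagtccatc

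AC122818.2, which had the second strongest of all the noncoding promoter peaks, scored only 5.30 at its best window. The best window of Gm31812 scored -1.04, and that of Gm12925 missed the threshold narrowly at 8.86. No call says only that these letters do not reach the threshold within 100 bases of the summit.

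The promoters of Gm17382 and B230206L02Rik show a peak in the last 100 bases before the TSS with its motif on the transcript's strand, the stretch described further on. That of Snhg15 has its motif on the transcript's strand farther upstream, under a summit 135 bases before the TSS. They are RefSeq sequences on GRCm38.p6 running 250 bases before to 50 bases after the RefSeq start, on the strand of the gene, with the motif in capitals.
Gm17382 (chr17:26886197-26886496, minus strand): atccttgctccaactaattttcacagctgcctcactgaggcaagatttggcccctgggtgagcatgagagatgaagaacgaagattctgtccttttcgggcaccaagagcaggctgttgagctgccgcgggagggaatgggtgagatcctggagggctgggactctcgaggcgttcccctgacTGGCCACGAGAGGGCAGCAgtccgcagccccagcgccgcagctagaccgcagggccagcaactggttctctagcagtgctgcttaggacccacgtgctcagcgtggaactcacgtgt
B230206L02Rik (chr11:94133206-94133505, plus strand): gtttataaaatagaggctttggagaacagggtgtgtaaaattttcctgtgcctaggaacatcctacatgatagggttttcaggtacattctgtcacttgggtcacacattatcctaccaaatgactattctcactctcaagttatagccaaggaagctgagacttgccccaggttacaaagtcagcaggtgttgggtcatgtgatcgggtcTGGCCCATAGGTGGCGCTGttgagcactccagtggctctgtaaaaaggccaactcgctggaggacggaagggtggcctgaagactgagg
Snhg15 (chr11:6528711-6529010, minus strand): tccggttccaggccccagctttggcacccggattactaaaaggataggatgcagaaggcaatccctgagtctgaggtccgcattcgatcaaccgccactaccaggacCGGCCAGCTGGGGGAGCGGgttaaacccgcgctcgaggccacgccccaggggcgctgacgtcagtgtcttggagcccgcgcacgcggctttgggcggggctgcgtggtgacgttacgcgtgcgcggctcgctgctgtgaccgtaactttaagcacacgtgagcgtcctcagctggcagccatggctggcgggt

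RefSeq promoter sequences were at hand for 483 of the 1090 noncoding genes nearest to a peak. The CTCF matrix was found in 19.8% of the 622 promoters of those genes (16.8 to 23.1), in 8.42% of the 4408 promoters of all noncoding genes of the 6 types (7.63 to 9.27), and in 10.2% of all 31396 promoters of chromosomes 1 to 19 (9.88 to 10.6). The 622 promoters are part of the 4408, and their genes were chosen for a CTCF summit near a TSS. The matrix was learned from peaks of the same list, so a higher share there follows in part from the choice. The match counts letters on either strand of a 300-base sequence, and the RefSeq start can differ from the GENCODE TSS that chose a peak.

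Noncoding promoter peaks were somewhat stronger than other peaks. Their median signal was 90.7, against 62.8 for the 13140 peaks within 1 kb of a coding TSS (coding promoter peaks) and 79.4 for the 57358 peaks over 1 kb from every TSS of both kinds (peaks elsewhere). As a percentile of the optimal list this was a median of 54.4, against 44.8 for coding promoter peaks and 51.2 for peaks elsewhere. The signals ran across nearly the whole list, with a range of 4.57 to 709 within a list range of 4.48 to 756. Of the noncoding promoter peaks 13.8% (12 to 15.8) were in the strongest decile of the list, against 9.63% of coding promoter peaks and 10% of peaks elsewhere. The lead in median percentile over peaks elsewhere varied by subset. It was nearly absent at summits outside repeats and was reversed at CpG-rich summits, as given further on.

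The order of the 3 classes was the same in each replicate's own list. Cut to its strongest 73465 peaks, the list of replicate 1 held 1251 noncoding promoter peaks and that of replicate 2 held 1258. Their median percentile was 54.3 in replicate 1 and 54.4 in replicate 2, against 44.6 in both for coding promoter peaks and 51.3 and 51.2 for peaks elsewhere. Of the 1258 optimal peaks 84.3% (82.1 to 86.2) ranked among those strongest peaks in both replicates, against 83.7% of all optimal peaks, and 87.3% (85.3 to 89.0) overlapped a peak of the stricter, conservative IDR list. The share of all optimal peaks in the conservative list was 87.6%, so the noncoding promoter peaks were near the whole list in both measures. Across the 1219 peaks matched in both replicates, the Spearman rank correlation of their signals was 0.966. This is a description without a test, since IDR chose peaks for alike ranks.

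The leading peaks lay mostly at lincRNA genes known only by clone or model names. Gm33195 on chromosome 13 had the strongest, with a signal of 709 in the optimal list and 350 and 361 in the replicates' own lists, its summit (43864777) 108 bases downstream of the TSS, in an exon. It ranked 10 in both replicate lists. AC122818.2 on chromosome 17 came next at 679 (340 and 342 in the replicates), 136 bases upstream of its TSS and 64.2 kb from the TSS of Epcam, the nearest coding gene and an epithelial adhesion molecule. AC122818.2 ranked 27 in replicate 1 and 40 in replicate 2, so both peaks were near the top of each list. Signals of the 3 lists are on scales of their own. The replicates' signals are printed beside each other as values, and only ranks can be compared between lists.

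Gm12052 on chromosome 11 followed with a signal of 647 in the optimal list (303 and 347 in the replicates) and ranked 162 in replicate 1 and 34 in replicate 2. Gm17382 had 644, and 320 and 327 in the replicates, at 89 bases upstream of its TSS. Gm26797 had 599 (282 and 319 in the replicates) at 18 bases upstream of a TSS, and its ranks of 447 in replicate 1 and 115 in replicate 2 were the farthest apart among the 10 strongest. The other members of the 10 strongest were Gm37584, Epb41l4aos, AC113104.3, A930015D03Rik and Gm31408, and the last of these had a signal of 579. Of the 10, 9 held a motif, and in 6 of those 9 it lay on the strand of the transcript; Gm12052, AC113104.3 and A930015D03Rik had it on the other strand.

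**Figure D1:**
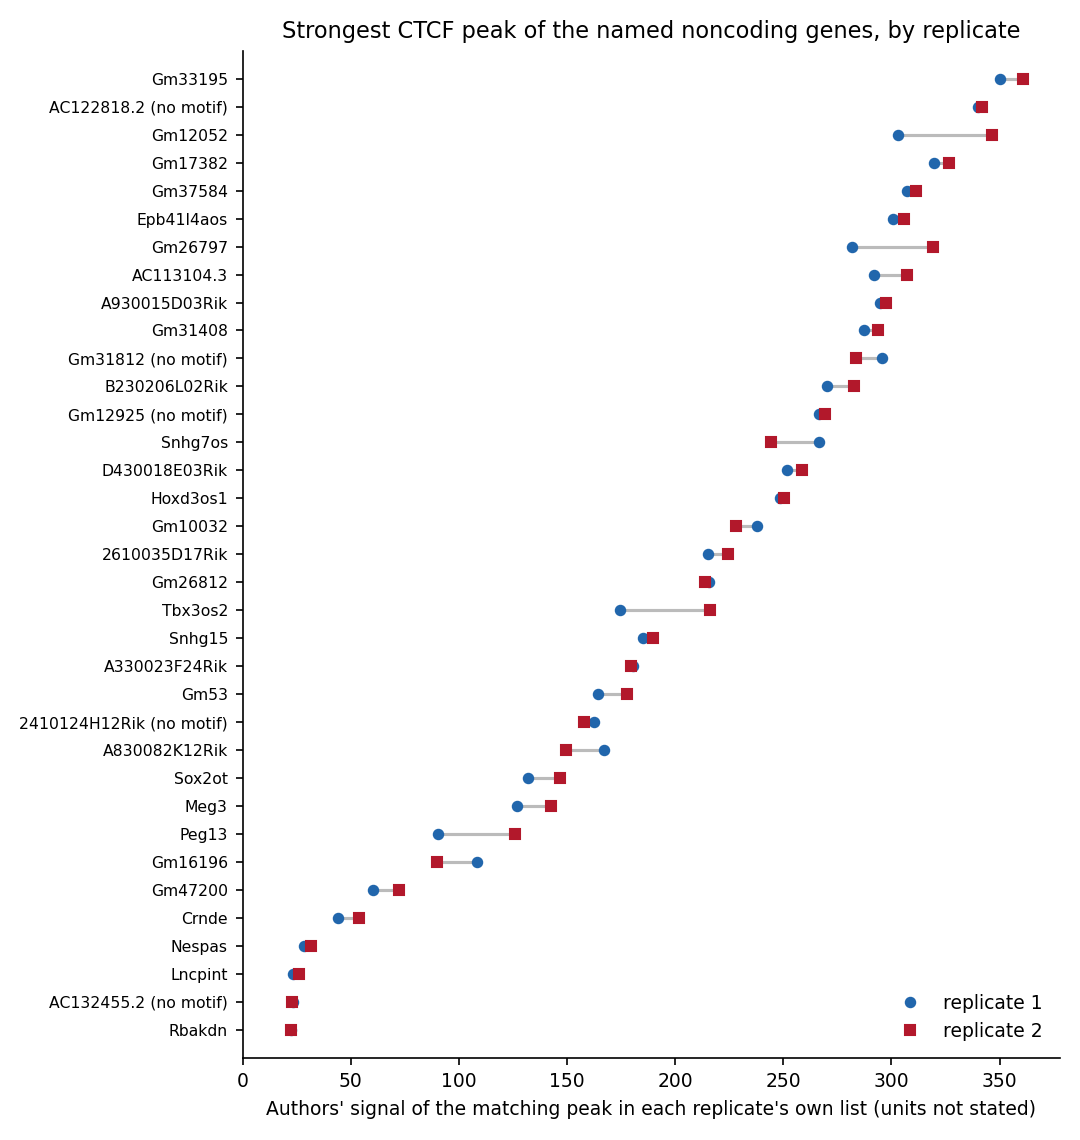
Signal of the strongest CTCF peak at each of 35 named noncoding genes, as the authors' value in the list of replicate 1 (circles) and of replicate 2 (squares), with genes ordered by signal in the optimal list and lines joining the replicates. For Gm26812 the strongest peak on a masked base is shown. Gm33195 is the strongest at 350 and 361, and Rbakdn, at 22.4 in both, is the weakest of those plotted.

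The strongest peak of each annotated type was far from alike in strength. Among lincRNA genes Gm33195 led, and among antisense genes A930015D03Rik, with a signal of 590 at 625 bases upstream of its TSS. B230206L02Rik, a processed_transcript, had 552 (270 and 283 in the replicates) at 54 bases upstream of a TSS. D430018E03Rik, sense_intronic, had 505, and 252 and 258 in the replicates. The 5 peaks of sense_overlapping genes were led by 2410124H12Rik at 322 (163 and 158), with no motif. The 5 of bidirectional_promoter_lncRNA genes were led by Gm16196 at 199 (108 and 89.8).

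By type of the nearest noncoding gene, 711 of the peaks were at lincRNA genes, 355 at antisense genes, 151 at processed_transcript genes and 31 at sense_intronic genes. Their median percentiles were 57.3 for lincRNA, 52.2 for antisense, 51.7 for processed_transcript and 48.3 for sense_intronic. The motif share was 62.7% for lincRNA, 64.8% for antisense, 58.3% for processed_transcript and 58.1% for sense_intronic peaks, with overlapping intervals. Antisense peaks lay inside a protein-coding gene body in 72.1% of cases (67.2 to 76.5), which follows from the annotation type, and lincRNA peaks did in 6.05% (4.52 to 8.05). Over all noncoding promoter peaks the median distance to the nearest coding TSS was 16.8 kb, and 187 lay over 100 kb from any. The summit was in an exon of its own noncoding gene in 282 cases, in an intron in 364 and outside it in 612.

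Seen from the genes, a noncoding TSS seldom had a CTCF peak. Of the 9421 noncoding genes of the 6 types on these chromosomes, 1124 (11.9%, interval 11.3 to 12.6) had a noncoding promoter peak within 1 kb of a TSS. With the 1181 peaks near coding TSSs added, 21.4% had a summit, and of 20807 protein-coding genes 46.7% did. Among the types, 12.6% of lincRNA genes had a noncoding promoter peak, as did 10.8% of antisense and 15.4% of processed_transcript genes. Only 4 of 190 bidirectional_promoter_lncRNA genes had one (2.11%, interval 0.822 to 5.29), while 58.4% of them had some optimal summit within 1 kb. That gap follows from the definition of the type, which starts beside a coding promoter.

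**Figure D2:**
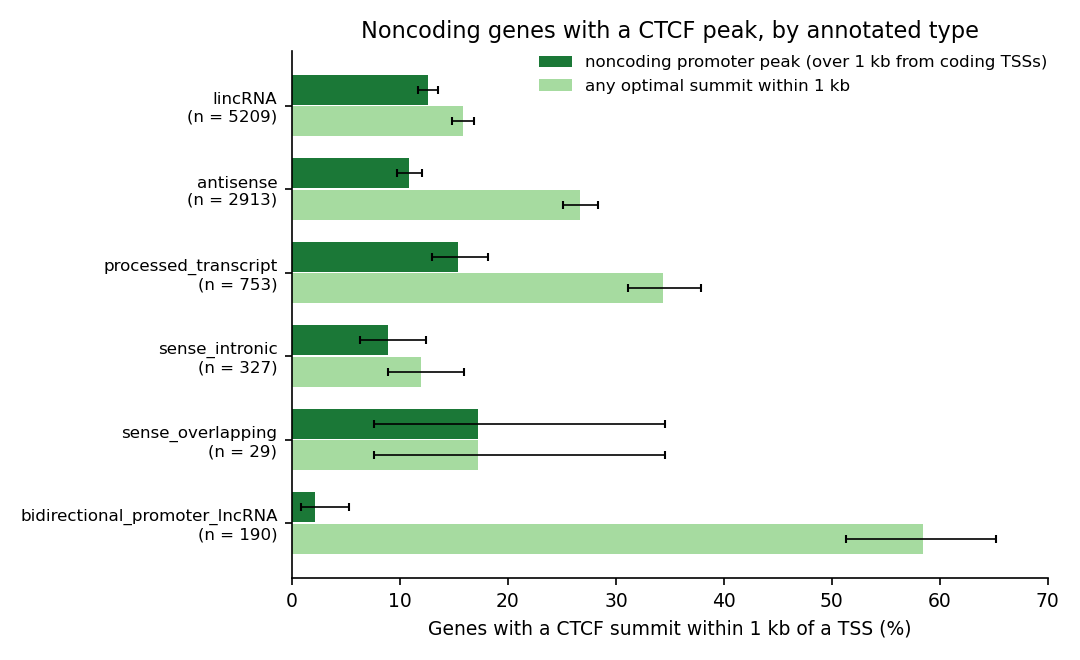
Share of noncoding genes of each annotated type with a noncoding promoter peak (dark bars) or with any optimal summit (light bars) within 1 kb of a TSS, in percent, with 95% Wilson intervals as lines and the number of genes under each name. The bars part most for bidirectional_promoter_lncRNA genes, at 2.11% and 58.4%.

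CpG content and the number of TSSs both moved with the chance of a peak. Among noncoding genes whose TSSs all lay over 2 kb from coding TSSs, 33.7% (29.7 to 37.8) of the 517 with a CpG ratio of 0.6 or more at the TSS had a summit within 1 kb, against 11.8% (11.1 to 12.6) of the other 6532. The CpG ratio is the observed number of CpG dinucleotides over the number that the C and G content gives, in 300 bases. For protein-coding genes the shares were 65.2% and 28.0%. CpG-rich TSSs made up 7.33% of these noncoding genes, against 50.4% of coding genes. Noncoding genes with 3 or more TSSs had a summit in 22.6% of cases (19.4 to 26.2) and those with 1 TSS in 11.5% (10.7 to 12.4). More TSSs cover more sequence, and the part of this in the count was not tested.

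Most genes with a peak had a lone one. Of the 1090 genes nearest to a peak, 941 had 1, 134 had 2, 11 had 3 and 4 had 4. The 4 genes with 4 peaks were A330023F24Rik, AC132455.2, Gm47200 and Gm6410. At A330023F24Rik, a processed_transcript gene on chromosome 1, the peaks had signals of 360, 87.1, 72.0 and 69.1, and the strongest, 51 bases upstream of a TSS, was the only one with a motif. At Gm47200, an antisense gene beside Gli1 (a Hedgehog pathway transcription factor), they had signals of 130, 78.6, 21.4 and 12.4. At AC132455.2 and Gm6410 all 4 were weak, the strongest at 47.1 and 34.8. Another optimal summit of any class lay within 1 kb of 20.7% of noncoding promoter peaks, of 28.7% of coding promoter peaks and of 9.70% of peaks elsewhere.

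The CTCF motif was less frequent at noncoding promoter peaks than in the list as a whole. It was called in 786 of 1258 (62.5%, interval 59.8 to 65.1), against 71.9% of all optimal peaks. The level of this share moves with the scoring and above all with the threshold: it was 34.8% at a threshold that 1% of flanks reached and 64.5% with bases scored against genomic composition. Coding promoter peaks held it in 48.2% of cases (47.3 to 49.0) and peaks elsewhere in 77.6% (77.3 to 77.9), so noncoding promoter peaks stood between these with intervals apart. In the replicates' own lists the share was 62.6% ± 0.598 (SD, n = 2) at noncoding promoter peaks, 47.8% ± 0.260 at coding promoter peaks and 77.8% ± 0.379 elsewhere. Windows 1 kb from the summits of noncoding promoter peaks held a motif in 4.17% of 2516 cases.

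The share went with peak strength. In the weakest decile of the list 29.9% (22.6 to 38.4) of noncoding promoter peaks held a motif, against 19% (17.2 to 20.9) of coding promoter peaks and 52.7% (51.3 to 54.0) of peaks elsewhere. In the strongest decile the share was 90.8% (85.5 to 94.2) at noncoding promoter peaks, 89.2% (87.3 to 90.8) at coding ones and 96.8% (96.3 to 97.3) elsewhere, so the intervals of noncoding and coding promoter peaks overlapped there. In the ninth decile noncoding promoter peaks, at 92.4% (86.8 to 95.7), were above coding ones at 81.4% (78.8 to 83.7) and overlapped peaks elsewhere at 93.9% (93.3 to 94.5).

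**Figure D3:**
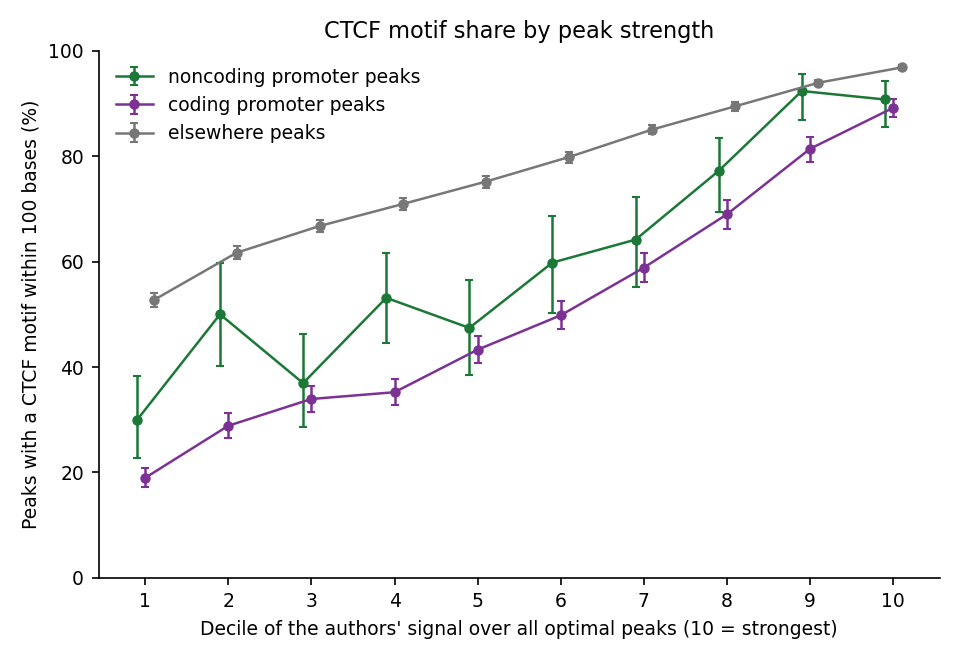
Share of peaks with a CTCF motif within 100 bases of the summit, in percent, by decile of the authors' signal over the optimal list (10 is the strongest), for noncoding promoter peaks, coding promoter peaks and peaks elsewhere, with 95% Wilson intervals. The share at noncoding promoter peaks lies between those of the other classes in all 10 deciles, at 29.9% in the weakest and 90.8% in the strongest.

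Across noncoding promoter peaks, coding promoter peaks and peaks elsewhere, base composition moved with the motif share. The median CpG ratio in 300 bases around the summit was 0.314 at noncoding promoter peaks, 0.619 at coding promoter peaks and 0.192 elsewhere, and the median GC content was 51.0% at noncoding promoter peaks, 59.7% at coding promoter peaks and 47.0% elsewhere. A ratio of 0.6 or more was found at 18.1% (16.1 to 20.3) of noncoding promoter peaks, 51.8% of coding ones and 3.31% of those elsewhere. Among peaks with that ratio 44.7% (38.4 to 51.2) of noncoding and 36.2% (35.1 to 37.4) of coding promoter peaks held a motif. Between 0.3 and 0.6 the share was 65.8% (61.2 to 70.1) at noncoding and 52.4% (50.7 to 54.1) at coding promoter peaks. Below 0.3 it was 66.8% (63.0 to 70.5) at noncoding and 70.5% (68.8 to 72.1) at coding ones, with intervals that overlap. At a like CpG ratio the noncoding share was thus above the coding share in the 2 CpG-richer classes alone. Peaks elsewhere held a motif in 67.1% (64.9 to 69.2) at a ratio of 0.6 or more. Their share was 75.7% (74.9 to 76.4) between 0.3 and 0.6 and 78.6% (78.2 to 79.0) below 0.3. It was above the noncoding share in each of these CpG classes. At a ratio of 0.6 or more the median signal percentile was 57.1 at noncoding promoter peaks and 71.1 elsewhere. Between 0.3 and 0.6 it was 61.4 at noncoding promoter peaks and 60.0 elsewhere, and below 0.3 it was 50.4 and 48.3. The part of composition in these differences was not tested.

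**Figure D4:**
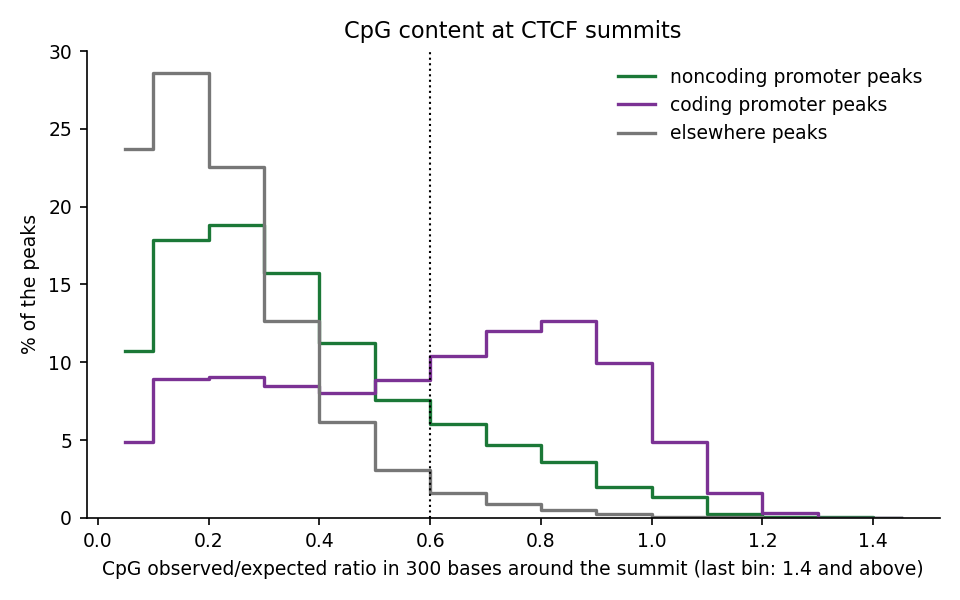
Distribution of the CpG observed/expected ratio in 300 bases around the summit, as percent of each class of peaks in bins of 0.1, with a dotted line at 0.6. Noncoding promoter peaks (median 0.314) lie between coding promoter peaks (0.619) and peaks elsewhere (0.192) and have a long tail past 0.6 in place of the second hump of coding promoter peaks.

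Repeats were less frequent under noncoding promoter peaks than in the list as a whole. The summit was on a repeat-masked base in 171 of 1258 cases (13.6%, interval 11.8 to 15.6), against 21.7% of all optimal peaks, 9.10% of coding promoter peaks and 24.8% of peaks elsewhere. Masked noncoding promoter peaks held a motif more often, in 84.8% (78.7 to 89.4), against 59.0% (56.0 to 61.9) of the unmasked ones, and were weaker, with a median percentile of 46.1 against 57.4. The other classes showed the same. Masked coding promoter peaks held a motif in 74.3% of cases and unmasked ones in 45.5%, at median percentiles of 39.3 and 45.5. Elsewhere the shares were 90.4% of masked and 73.4% of unmasked peaks, at percentiles of 38.2 and 57.2. Among noncoding promoter peaks the strongest masked summits were those of Gm10032, 2610035D17Rik and Gm26812. Gm10032 had a signal of 463 (238 and 228 in the replicates), 2610035D17Rik 440 (215 and 224) and Gm26812 425 (216 and 214). The coding TSS nearest to the peak of 2610035D17Rik was that of Sox9, at 390.4 kb. The repeat family was not analysed here.

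The summits piled up just before the TSS, and there the motif mostly followed the direction of the transcript. Of the 1258 summits 703 (55.9%, interval 53.1 to 58.6) were upstream of the nearest noncoding TSS, and 53.8% (52.9 to 54.6) of coding promoter peaks were upstream of the nearest coding TSS. The last 100 bases before the TSS held 172 summits, 13.7% of the noncoding promoter peaks, against 7.07% in the 100 bases after it. The last 100 bases held 19.6% of coding promoter peaks. The median distance of a summit from its TSS was 400 bases at noncoding and 206 bases at coding promoters. Peaks in those last 100 bases were stronger, at a median percentile of 68.8, than peaks in the 100 bases after the TSS, at 49.3, and for coding promoter peaks the values were 51.3 and 36.4.

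Over all 786 motifs of noncoding promoter peaks, 432 (55.0%, interval 51.5 to 58.4) lay on the strand of the transcript, against 53.3% (52.1 to 54.5) at coding promoters. In the last 100 bases before the TSS the share was 72.3% (86 of 119, interval 63.6 to 79.5), against 63.0% (60.2 to 65.6) of 1234 at coding promoters. These 2 intervals overlap. The replicates' own lists gave 73.2% and 75.2% in that stretch, and the share was 71.6% over the 116 motifs at TSSs of 1 strand only. From 1000 to 500 bases upstream the share was 49.4% (41.7 to 57.0), and from 500 to 1000 bases downstream 50.9% (43.5 to 58.2). It was 41.2% (32.0 to 51.2) from 500 to 250 bases upstream and 54.1% (43.6 to 64.3) from 250 to 100 bases upstream. The first 100 bases downstream had 54.5% (40.1 to 68.3), and the stretch from 250 to 500 bases downstream had 56.9% (44.8 to 68.2). From 100 to 250 bases downstream the share was 74.4% (59.8 to 85.1) of only 43 motifs, against 44.6% (40.2 to 49.2) at coding promoters. The bins were chosen after the values had been seen.

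**Figure D5:**
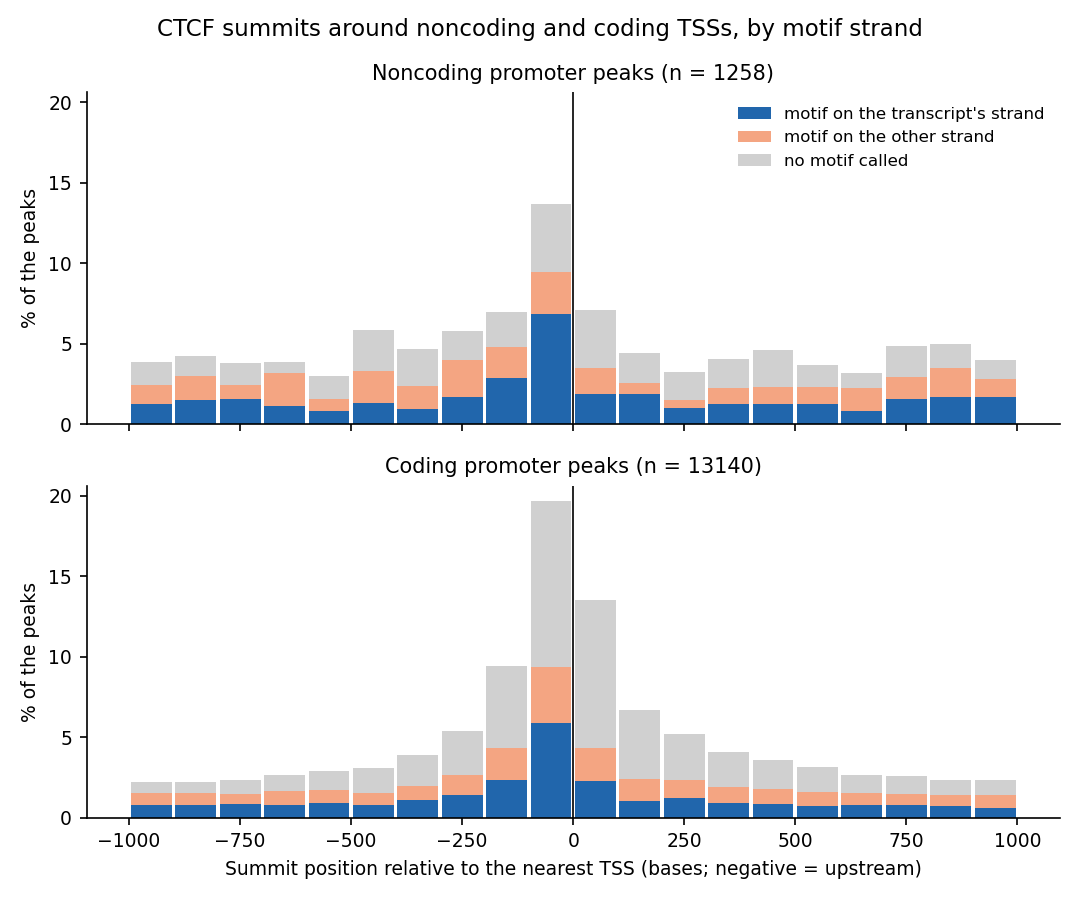
Position of CTCF summits relative to the nearest TSS, in bins of 100 bases as percent of the peaks, for noncoding promoter peaks (top, against noncoding TSSs) and coding promoter peaks (bottom, against coding TSSs). Colours part peaks whose motif lies on the transcript's strand, on the other strand, or that have no motif. The bin just upstream of the TSS is the tallest in both panels, with 13.7% of noncoding and 19.6% of coding promoter peaks.

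The strongest peaks in those last 100 bases held motifs of differing score. Gm17382, Epb41l4aos, Gm26797, Gm41414 and B230206L02Rik led them, with signals of 644, 602, 599, 578 and 552, and in all 5 the motif lay on the strand of the transcript. The motif scores were 20.7 at Gm17382, 14.9 at Epb41l4aos, 13.6 at Gm26797, 22.6 at Gm41414 and 14.5 at B230206L02Rik. These 5 were the strongest of the bin and were picked after the bin had been chosen. In the Gm17382 and B230206L02Rik promoters printed above, the capitals stand shortly before the RefSeq start, which lies 50 bases from the end of the sequence. At Snhg7os, by contrast, the peak 47 bases upstream of the TSS (signal 505) had its motif on the other strand.

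Of 5 lists of noncoding RNAs examined, that of hosts of small RNAs had the highest share of genes with a peak. No test was made between lists or against all noncoding genes. The lists hold only 13 to 34 annotated genes, so their shares are coarse, and the number of TSSs per gene was not taken into account. The list of hosts holds mostly transcripts that carry snoRNAs or microRNAs in their introns or exons. It also counts Snhg7os, which is antisense to such a host, and Rmrp and Mirt1. Of 30 annotated members 15 (50%) had a noncoding promoter peak, against 11.9% of all noncoding genes, 6 had a summit only near a coding TSS and 9 had none. Epb41l4aos, which lies beside Epb41l4a, had a signal of 602, with 301 and 306 in the replicates. Snhg7os had 505, with 266 and 244. Snhg15 had 375, with 185 and 190, at 135 bases upstream of its TSS, and a second, weak peak of 43.4 at another TSS. These 3 were strong in both replicates.

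Snhg17 had a peak of signal 350 (163 and 187 in the replicates), whose summit lay 1 base upstream of a TSS. Mir17hg, the host of the miR-17 to miR-92 cluster of growth-promoting microRNAs, had 300.3 (147 and 158) at 628 bases upstream. Snhg12 had 259.6 (130 and 133) and Snhg5 had 197 (101 and 95). The other 8 genes ranged from Snhg8 at 127 down to Mir9-3hg at 20.8, with Zfas1 at 59.4, Dleu2 at 58.7, Mir670hg at 42.4, Mir99ahg at 42.0, Snhg20 at 35.5 and Snhg6 at 26.9 between them. The strongest peaks of Mir99ahg, Snhg20 and Mir9-3hg were not in the conservative list. Carmn was the first by alphabet with no summit within 1 kb, but its nearest optimal summit was just past that limit, at 1.044 kb. Gas5 and Snhg1, both hosts of many snoRNAs, had no summit within 1 kb either. Of the strongest peaks of these 15 genes 10 held a motif, and 10 had a CpG ratio of 0.6 or more around the summit. The part of CpG content in this count was not tested.

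Imprinted noncoding RNAs, which are transcribed from 1 parental allele, had a peak in 5 of 13 annotated cases (38.5%), against the same 11.9%, and no summit in 8. Meg3, a maternally expressed RNA of the Dlk1 to Dio3 domain, had 2 peaks on chromosome 12. The stronger (270.3, and 127 and 142 in the replicates) lay 776 bases downstream of its nearest TSS in an exon, with the motif on the other strand. The weaker (158, and 71.6 and 84.3) lay 91 bases upstream of a TSS, with the motif on the transcript's strand. Peg13, a paternally expressed RNA inside Trappc9, had 2 overlapping peaks of 211 (90.4 and 126 in the replicates) and 176 (72.1 and 106), both with a motif on the transcript's strand.

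The other imprinted genes had weaker peaks. Nespas, antisense RNA of the Gnas locus, had 61.2 (28.3 and 31.8) at 31 bases upstream of its TSS, with a motif, and a second peak of 32.2 without one. Airn, which silences Igf2r in cis, had 56.8 (24.3 and 30.5) at 5 bases downstream of its nearest TSS and no motif. Kcnq1ot1, the silencing RNA of the Kcnq1 domain, had 24.2 (6.82 and 16.2) and no motif, and this peak was not in the conservative list. No summit lay within 1 kb of a TSS of A330076H08Rik, Mirg, Rian, Snhg14 or H19. The peaks do not tell the parental alleles apart.

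At the Hox clusters 3 of 13 noncoding RNAs (23.1%, against 11.9%) had a peak and 10 had none. Hoxd3os1, antisense in the Hoxd cluster that patterns limbs and hindgut, had a signal of 494 (248 and 250.4 in the replicates) at 41 bases downstream of its nearest TSS. Gm53 in the Hoxb cluster had 341 (164 and 178). Gm15050, Hotair and Hottip had no summit within 1 kb.

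Of 34 noncoding RNAs beside genes of developmental transcription factors, 6 (17.6%, against 11.9%) had a noncoding promoter peak, 7 had a summit only near a coding TSS and 21 had none. Tbx3os2 had 390 (174 and 216 in the replicates), the strongest, at 104 bases upstream. A830082K12Rik, beside Nr2f1, had 316 (167 and 150), and Sox2ot, whose gene spans Sox2, had 279 (132 and 147). Hand2os1, beside a factor of gut mesenchyme and enteric neurons, had 118 (53.3 and 66.8) without a motif. Hnf4aos, antisense beside the enterocyte factor Hnf4a, had 67.6 (34.0 and 31.4) with a motif on the other strand, and Tbx3os1 had 33.4 (12.7 and 19.3). 9030622O22Rik and Fendrr, a mesenchymal RNA beside Foxf1, had none.

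In the list of other noncoding RNAs with described functions, the peaks were mostly weak. Of its 30 annotated genes 8 (26.7%, against 11.9%) had a noncoding promoter peak, 4 had a summit only near a coding TSS and 17 had none. Neat1 had a peak that was nearer to another gene. Crnde led at 97.9 (44.0 and 53.7 in the replicates), 18 bases upstream of a TSS, with 2 weaker peaks of 51.9 and 10.7 beside it. Lncpint, a p53-induced RNA, had 48.8 (23.4 and 26), and Rbakdn had 46.7 (22.4 in both). Platr4, 1810026B05Rik, 2900097C17Rik, Bvht and Dubr had 31.5, 31.1, 27.7, 17.9 and 12.4. The median percentile of the strongest peak per gene was 21.5 in this group, against 62.3 for hosts of small RNAs and 54.4 over all noncoding promoter peaks. Malat1, Pvt1 and Gm26917 had no summit within 1 kb. For Bvht and Dubr only 1 replicate had a matching summit.

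Peaks just inside the rule's borders differed from those just outside in median percentile and CpG ratio, with no test. The 99 peaks with a noncoding TSS 900 to 1000 bases away, just inside, had a median percentile of 62.1, a motif in 66.7% of cases and a median CpG ratio of 0.310. The 88 peaks at 1000 to 1100 bases, just outside, had a percentile of 49.7, a motif in 71.6% and a CpG ratio of 0.244. This gap in percentile is wider than those between noncoding promoter peaks and the other classes. Of peaks near a noncoding TSS, the 27 with a coding TSS 1000 to 1100 bases away were kept and had a median percentile of 42.4, a motif in 66.7% and a CpG ratio of 0.311. The 31 with one at 900 to 1000 bases were not kept and had 50, 58.1% and 0.350.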

How the data were processed

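Per the file descriptions, the authors called peaks in each replicate and in the pooled reads, and made an optimal and a conservative list by IDR, all on mm10. The signal the authors deposited has no stated normalization. Aligner, peak caller, versions and IDR threshold were not given in the sources used here. The pooled list was not used. Chromosomes 1 to 19 were analysed. Chromosome lengths of RefSeq GRCm38.p6 and GENCODE M21 were checked against the lists, and no peak ran past a chromosome end. Of the optimal peaks 150 shared their interval with another row, 10 of them at noncoding promoters, and each row was kept as a peak.

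The motif matrices were trained in 6 rounds on 5000 peaks each, with a pseudocount of 1, and their calls were tested on simulated data. A replicate summit within 100 bases counted as a match. Repeats are the masked bases of the genome file. Both replicates are pools over several dissections and the labels give them 1 donor entry, so the SD over n = 2 may be technical. With 1 group of 2 replicates no test between samples was made. Genes were named by a rule: the 10 strongest peaks, the strongest of each type, the 3 strongest and the first by alphabet without a summit in each gene list, the 3 strongest without a motif or on a masked base, and 3 of the genes with most peaks; 1 gene this rule gave is not reported here. Gm41414, Gm6410 and further genes of the 5 lists were named after their values were seen. The peaks and lists were chosen with earlier results of these data known. Alternatives were other lists, windows and thresholds. Python 3.11.15, numpy 2.4.6, scipy 1.17.1, pandas 2.3.3, pysam 0.24.0, matplotlib 3.10.9 and samtools 1.23.1 were used.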

Additional observations from a re-analysis of the deposited data

How the results depend on the processing

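With 1 group, fixed annotation and unknown read depth, shares carry counting error only. Noncoding promoter peaks kept their order to coding promoter peaks and peaks elsewhere in motif share under the reported setting and 11 alternatives, and in median percentile, CpG ratio and masked share under the 8 of these that change the peaks. Of 101 recomputed values 68 stayed within their interval, the replicate SD or 1.5 times the count. Among peaks above the median signal there were 680 peaks at 648 genes, with a median percentile of 57.2, a motif share of 78.8%, 58.7% upstream, a CpG ratio of 0.333, 10.4% masked, 100% in the conservative list and 99.7% strong in both replicates. With 500 bases around the noncoding TSS there were 762 peaks at 720 genes, with a percentile of 56.3, 59.6% with a motif, 58.6% of motifs on the transcript's strand, 61.2% upstream, a CpG ratio of 0.355 and 9.58% masked, close to the 9.10% of coding promoter peaks. With 2 kb there were 2112 peaks at 1801 genes, with 53.2, 66.9% with a motif, a CpG ratio of 0.276 and 18.2% masked. In the conservative list the percentile was 55.6 and 89.9% were strong in both replicates. With gene 5′ ends only the percentile was 53.4, the motif share 59.4% and the CpG ratio 0.357. Over 5 kb from coding TSSs the CpG ratio was 0.306, and over 100 bases 0.337. With the threshold at 1% of flanks the motif share was 34.8%. Leaving out a replicate gave percentiles of 54.3 to 54.4 and CpG ratios of 0.315 to 0.317. For motifs in the last 100 bases before the TSS, a result added after seeing the data, the share on the transcript's strand was 71.0% to 75.2% under 10 alternatives, and the 500-base and 2 kb windows cannot change that set. Scoring against genomic base composition, also added after seeing the data, gave a motif share of 64.5%. Of the 36 genes with a peak that the naming rule gave, 1 had none in the list of replicate 1, and up to 8 had none under another alternative. No paired analysis was possible because there is 1 group. The cause of these changes was not tested.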
